A study of Homo sapiens with 3 samples.

Results

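MicroRNAs miR-122 and miR-885, which are known as hepatocyte miRNAs, were followed through the small RNA libraries of 3 cancer-derived cell lines. The 4 members were the 2 arms of each precursor, hsa-miR-122-5p, hsa-miR-122-3p, hsa-miR-885-5p and hsa-miR-885-3p, taken by name from 2588 mature miRNAs listed in the deposited tables. The lines were C643, derived from an anaplastic thyroid carcinoma, ES-2, derived from an ovarian carcinoma, and Huh-7, derived from a hepatocellular carcinoma. All 3 were parental cultures, without deletion or treatment, grown in DMEM with serum and harvested 48 h after seeding. The purpose of the libraries was to see how abundant the product of MIR21 is before that gene is deleted. Each line was a single library, so no difference between lines has a replicate check, and all intervals cover counting error only.

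A miRNA is cut from a hairpin precursor, and either side of the hairpin can yield a mature product, the 5p or the 3p arm. One arm usually enters the Argonaute protein and pairs through its seed, bases 2 to 8, with target mRNAs, while the other is mostly degraded. miR-122 is the dominant miRNA of the normal hepatocyte, where it acts in cholesterol and lipid metabolism and is used by hepatitis C virus RNA as a host factor. miR-885 is released into blood by damaged liver and has also been studied in neuroblastoma.

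The precursors lie on different chromosomes and in different kinds of host gene. MIR122 occupies chr18:58451074-58451158 on the plus strand (GRCh38) and is covered by an exon of its non-coding host gene MIR122HG, 4799 bases from the start of that gene. MIR885 occupies chr3:10394489-10394562 on the minus strand. It lies in an intron of all 13 annotated transcripts that span it of ATP2B2, which encodes a plasma membrane calcium pump. The hairpins are shown because the arms are compared with each other below. They are written 5′ to 3′ from RefSeq (GRCh38.p14), with the 5p arm and then the 3p arm in capitals, separated by 14 bases in MIR122 and by 10 in MIR885.
MIR122: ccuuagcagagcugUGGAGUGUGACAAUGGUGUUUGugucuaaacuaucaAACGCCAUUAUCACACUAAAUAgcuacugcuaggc
MIR885: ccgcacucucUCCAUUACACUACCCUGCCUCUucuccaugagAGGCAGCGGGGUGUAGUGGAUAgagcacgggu

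The mature products are given again below with the seed in capitals, since the seed decides which family a miRNA belongs to.
hsa-miR-122-5p: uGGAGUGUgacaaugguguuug
hsa-miR-122-3p: aACGCCAUuaucacacuaaaua
hsa-miR-885-5p: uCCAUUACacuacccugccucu
hsa-miR-885-3p: aGGCAGCGggguguaguggaua

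Each product has 22 bases, both 5p arms begin with U and both 3p arms with A. GC content was 45.5% in miR-122-5p and 31.8% in miR-122-3p, against 50.0% in miR-885-5p and 59.1% in miR-885-3p. The 4 seeds differ from each other, and none of them is the seed of another of the 2370 human mature miRNAs of the RefSeq table. The longest run shared by any pair of members was CCAUUA, in miR-122-3p and miR-885-5p. Each member also has a single locus, so that neither family copies nor repeated loci could share its reads.

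Depth was 8183100 miRNA reads for C643, 2173587 for Huh-7 and 1663181 for ES-2. These reads were recovered from the deposited values, which are reads multiplied by a library factor. A share is the part of a library's miRNA reads that a miRNA took, and it does not depend on that factor. The limit for a miRNA without a read was set at 3 reads, a share of 0.00018% for ES-2, 0.000138% for Huh-7 and 3.67e-05% for C643.

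Together the 4 members took 13.9% of miRNA reads in Huh-7 (Wilson 95% CI 13.84 to 13.93, 301872 reads). They took 0.00596% in C643 (0.00546 to 0.00652, 488 reads) and 0.000361% in ES-2 (0.000165 to 0.000787, 6 reads). All 4 had reads in Huh-7 and in C643, in C643 as few as 1 for miR-885-3p, whereas in ES-2 miR-122-5p alone had any. Whether the libraries were sequenced together is not given in the sources used here, and the origin of the few reads in C643 and ES-2 was not tested. Apart from miR-122-5p in C643, no member had more than 12 reads in the thyroid or ovarian line. The interval of the Huh-7 sum overlapped neither of the others, but these intervals cover counting error only. At this depth most miRNAs differ beyond counting: a test of reads on the deposited scale, given below, called 344 of 390 between ES-2 and Huh-7.

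miR-122-5p, the arm known as the active product of MIR122, carried most of this signal. Huh-7 yielded 288469 of its reads, C643 468 and ES-2 6. These reads amounted to 13.3% (95% CI 13.23 to 13.32), 0.00572% (0.00522 to 0.00626) and 0.000361% (0.000165 to 0.000787) of the respective libraries. It therefore made up about 1 in 8 miRNA reads of the liver line and stood at rank 2 there, at rank 186 in C643 and at rank 371 in ES-2. In Huh-7 the nearest miRNA above it was miR-21-5p, and it was 1.80-fold above the next one, miR-92a-3p (1.79 to 1.81).

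miR-122-3p, the other side of the same hairpin, was read 988 times in Huh-7, 7 times in C643 and not in ES-2, a count of 0. Its share in Huh-7 was 0.0455% (0.0427 to 0.0484), at rank 105, and in C643 it was 8.55e-05% (4.14e-05 to 0.000177). Its neighbours in the Huh-7 order were miR-629-5p with 1001 reads and miR-99b-3p with 960. Neither differed from it beyond counting error.

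miR-885-5p, the arm of MIR885 that is measured in serum of patients with liver disease, gave 11365 reads in Huh-7 against 12 in C643 and 0 in ES-2. It took 0.523% of the Huh-7 library (0.513 to 0.533), at rank 29, and 0.000147% of C643 (8.39e-05 to 0.000256). In Huh-7 it did not differ beyond counting error from miR-128-3p directly above it, at a ratio of 0.990 (0.965 to 1.02). It exceeded let-7a-5p directly below it, whose loci were summed, at 1.07 (1.04 to 1.10). A liver-linked miRNA that was not detected in ES-2 thus stood level with miR-128-3p in Huh-7.

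miR-885-3p gave 1050 reads in Huh-7 against 1 in C643 and 0 in ES-2. Its share in Huh-7 was 0.0483% (0.0455 to 0.0513), at rank 101. Its neighbours miR-424-3p and miR-15a-5p, with 1057 and 1034 reads, did not differ from it beyond counting error.

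**Figure D1:**
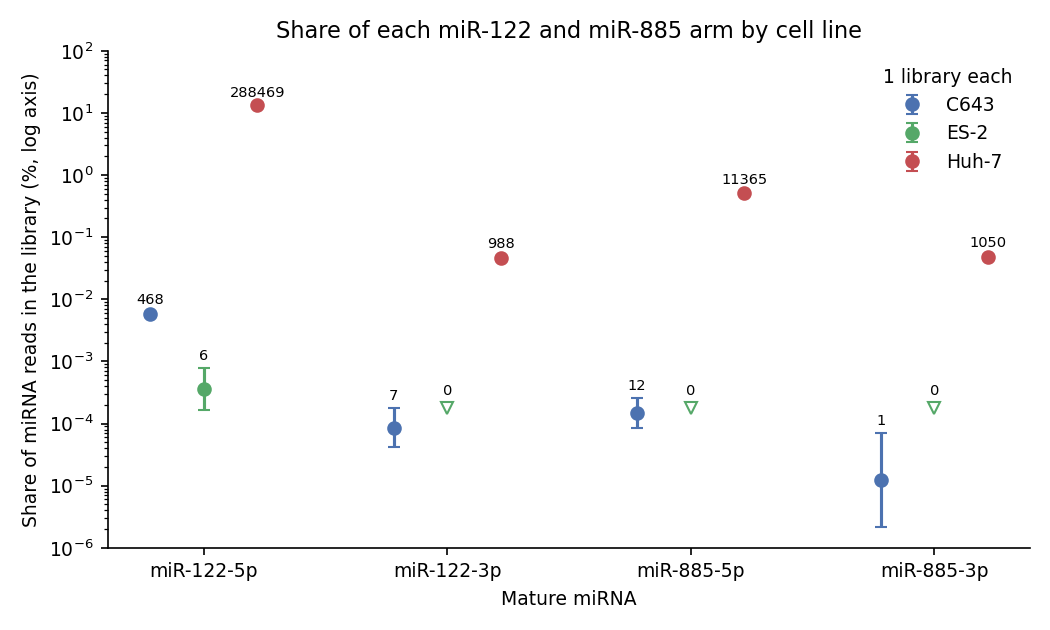
Share of miRNA reads (percent, log axis) taken by each arm of miR-122 and miR-885 in 1 library each of C643, ES-2 and Huh-7, with Wilson 95% intervals and read counts beside the points; open triangles mark 0 reads, drawn at the share of 3 reads. Huh-7 lies highest for all 4 arms, with 288469 reads of miR-122-5p against 468 in C643 and 6 in ES-2.

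**Figure D2:**
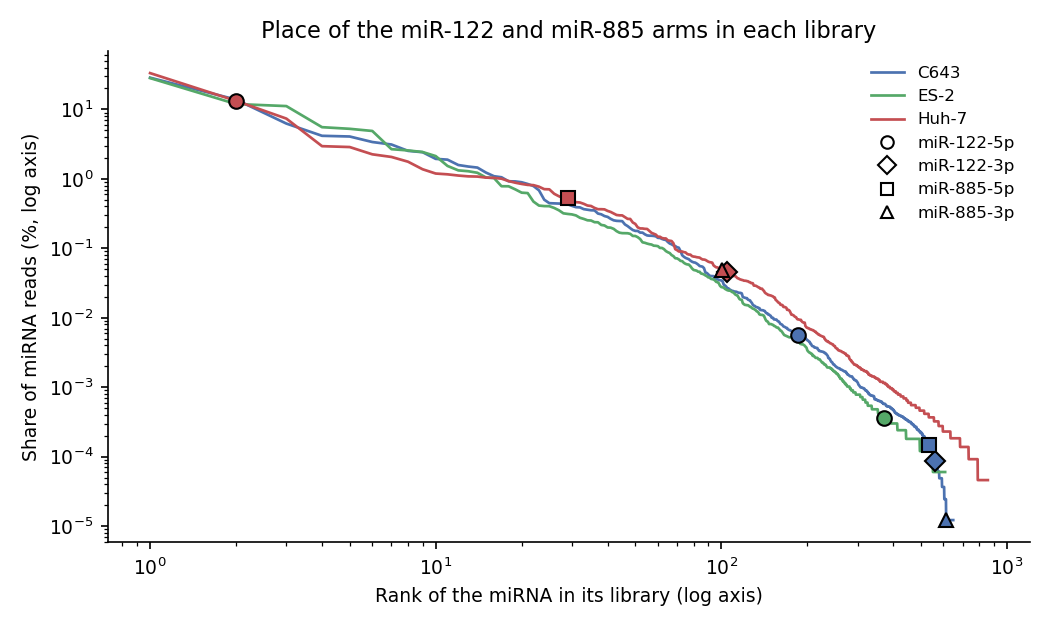
Share of miRNA reads (percent, log axis) against rank (log axis) for all miRNAs with a read in each library, with the arms of miR-122 and miR-885 marked by shape and coloured by line. In Huh-7 the arms stand at ranks 2, 29, 101 and 105, while in C643 miR-122-5p stands at rank 186 and the other 3 between ranks 534 and 613.

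ES-2 and Huh-7 were deposited in the same table and were compared directly. By share, miR-122-5p was 36788-fold higher in Huh-7 (95% CI 16902 to 100246), and on the deposited scale 19501-fold. Set against 3 reads in ES-2, the fold by share was 2899 for miR-885-5p, 268 for miR-885-3p and 252 for miR-122-3p. The exact 95% lower limits from 0 reads were lower, at 2357, 217 and 205. If ES-2 had held the Huh-7 shares, its library would have contained 220730 reads of miR-122-5p, 8696 of miR-885-5p, 803 of miR-885-3p and 756 of miR-122-3p. The size of the difference is thus known only as a bound for the 3 members at 0 in ES-2.

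On the log2 scale of the deposited value plus 1, the differences between Huh-7 and ES-2 were 13.94 for miR-122-5p, 11.64 for miR-885-5p, 8.21 for miR-885-3p and 8.13 for miR-122-3p. Of 390 miRNAs with a value of at least 10 in either line, 108 or 27.7% were at least 4-fold higher in Huh-7 on this scale, and all 4 members were among them. All 4 reached the value of 10 in Huh-7 alone, so they entered this comparison only through the line where they were high, and nothing is read from their count or ranks. In the other direction 76 reached 4-fold, with ES-2 the higher. By share the split was 181 to 65 of 437, again with all 4 members on the side of Huh-7. In the order of these differences miR-122-5p was at rank 1, miR-885-5p at rank 3, miR-885-3p at rank 9 and miR-122-3p at rank 10. A two-sided exact binomial test of the reads bears on this pair of libraries rather than on the lines. After Benjamini-Hochberg adjustment it called 53.8% of the 390 higher in Huh-7. The 4 members were included, but they entered through Huh-7 alone, so nothing is read from this call either.

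C643 was deposited separately, and its levels were only described beside those of Huh-7. By share, miR-122-5p was 2321-fold higher in Huh-7 than in C643 (2119 to 2546) and miR-885-5p 3566-fold (2040 to 6903). miR-122-3p was 531-fold higher (257 to 1325), and the ratio of 3953 for miR-885-3p rested on 1 read in C643 (708 to 156283). Of 399 miRNAs compared on the deposited scale, 100 or 25.1% were at least 4-fold higher in Huh-7, and they included all 4 members, at ranks 1, 2, 6 and 13 for miR-122-5p, miR-885-5p, miR-885-3p and miR-122-3p. Here 3 of the 4, all but miR-122-5p, reached the value of 10 in Huh-7 alone, so nothing is read from the members' count or ranks. In the other direction 90 reached 4-fold, and by share the split was 157 to 77 of 442, with the 4 members higher in Huh-7.

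**Figure D3:**
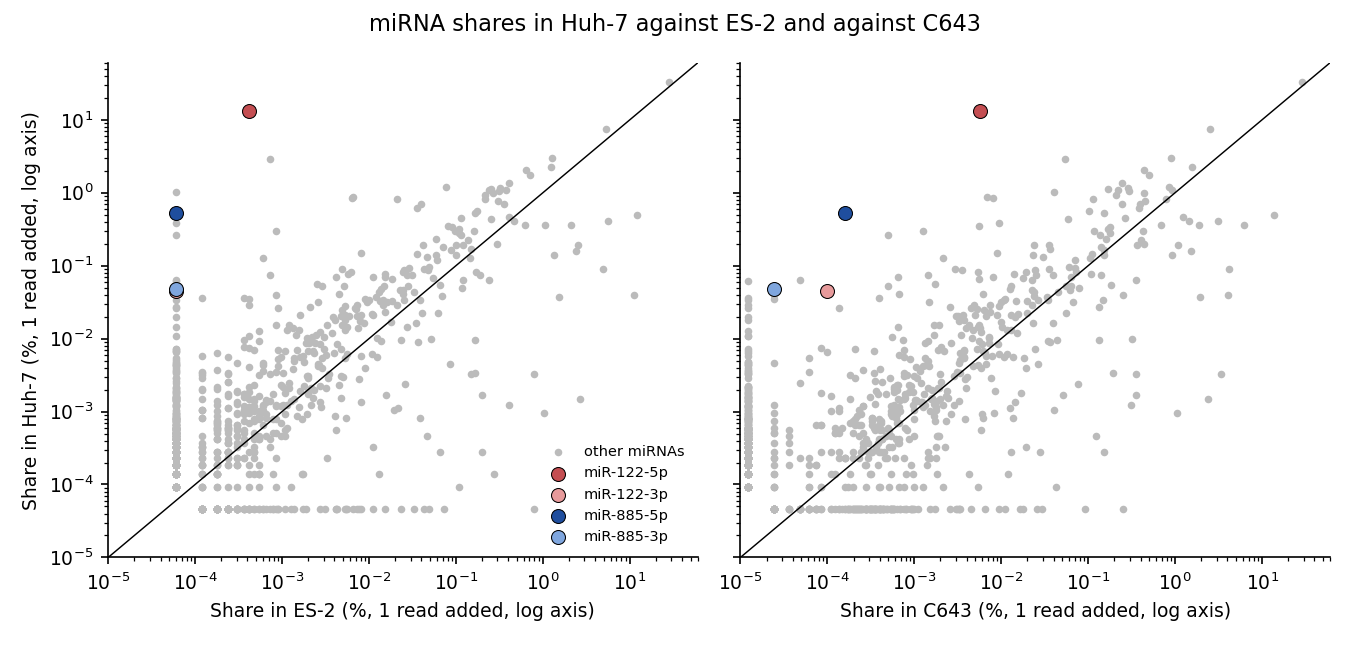
Share of each miRNA in Huh-7 (vertical axis) against its share in ES-2 (left) or C643 (right), in percent on log axes with 1 read added, for miRNAs with a read in either library; the line marks equal shares. The arms of miR-122 and miR-885 lie far above the line in both panels, and the points of miR-122-3p and miR-885-3p almost coincide on the left, where Huh-7 had 988 and 1050 reads and ES-2 none.

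The reads of miR-122-5p in the 2 lines of other origin, whose source was not tested, differed beyond counting error. Its share was 15.9-fold higher in C643 than in ES-2 (7.23 to 43.4), and ES-2 would have held 95 reads at the C643 share, where 6 were found. For the other members ES-2 would have held 2 reads of miR-885-5p, 1 of miR-122-3p and 0 of miR-885-3p at the C643 shares. A difference between C643 and ES-2 in these 3 was not detectable at this depth.

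How low the members stood outside Huh-7 was set beside the 104 miRNAs with at least 1000 reads in that line. The median of these held 32.0% of its Huh-7 share in ES-2 and 37.7% in C643. miR-122-5p held 0.00272% of its Huh-7 share in ES-2 and 0.0431% in C643. miR-885-5p and miR-885-3p held 0.0281% and 0.0253% in C643, and they were among 7 of the 104 without a read in ES-2. In C643 only miR-215-5p, with 0 reads, had a lower point value relative to Huh-7 than these 3 members. With 1 read of miR-885-3p, 12 of miR-885-5p and 468 of miR-122-5p in C643, their intervals overlapped and they were not ranked. The 104 were taken by their reads in Huh-7, where the members are high, so nothing is read from these places.

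The arms of each precursor were then compared within a library, where they share depth and scale. Whether sequences that differ in GC content were captured equally was not tested, so these are ratios of reads. In Huh-7 miR-122-5p exceeded miR-122-3p 292-fold (274 to 311), whereas miR-885-5p exceeded miR-885-3p 10.8-fold (10.2 to 11.5). The 3p arm thus made up 0.341% of MIR122 reads and 8.46% of MIR885 reads. Across 147 precursors with at least 100 reads over both arms in Huh-7, the arms differed by a median of 31.8-fold. Of these, 31 were more unequal than miR-122 and 102 more unequal than miR-885.

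The precursors differed in Huh-7 in the reads of their 5p arms. There miR-122-5p had 25.4 times the reads of miR-885-5p (24.9 to 25.9), while miR-122-3p had 0.941 times those of miR-885-3p (0.862 to 1.03), which did not differ from 1 beyond counting error.

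In C643 the same comparisons rested on few reads. miR-122-5p exceeded miR-122-3p 66.9-fold (32.2 to 167), an interval that lies below that of Huh-7, so that the 3p arm took a larger part of MIR122 reads in C643, at 1.47%. For MIR885 the ratio was 12.0 in C643 (1.78 to 513), which contains the Huh-7 value. miR-122-5p had 39.0 times the reads of miR-885-5p in C643 (22.1 to 76.0), also not distinguishable from Huh-7. In ES-2 the 6 reads of miR-122-5p, against 0 of the other arms, gave no ratio.

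**Figure D4:**
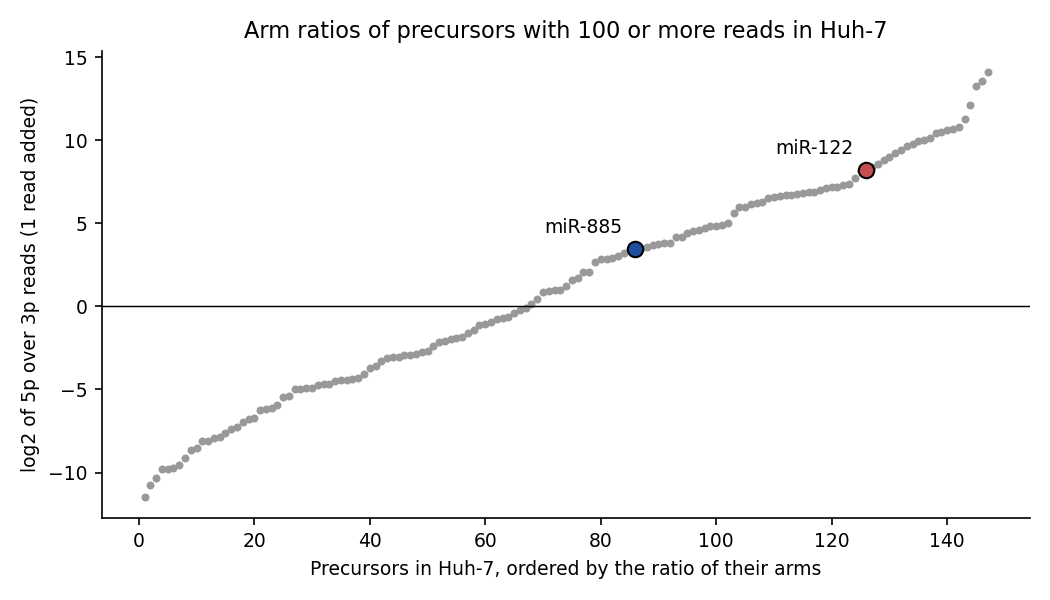
Log2 ratio of 5p to 3p reads, with 1 read added to each arm, for the 147 precursors with at least 100 reads in Huh-7, ordered by the ratio; each point is a precursor, and the line marks equal arms. miR-122 lies at 8.19 among the precursors with far more 5p than 3p reads, and miR-885 at 3.44 nearer to the middle.

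MIR122 shares its position with MIR3591, a precursor annotated on the opposite strand at 58451080 to 58451152, and the strand setting of the counting is not given in the sources used here. miR-3591-3p, which overlaps miR-122-5p by 21 bases, had 0 reads in all 3 libraries. miR-3591-5p, which overlaps miR-122-3p by 20 bases, gave 14 reads in Huh-7 alone. These 14 reads equal 1.42% of the miR-122-3p reads, and no read of the opposite strand was set against the 288469 of miR-122-5p.

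Profiles over the 3 libraries were compared by the largest difference between log2 shares, each centred on its mean and with 1 read added, among 341 other miRNAs with at least 100 reads in a library. Nearest to miR-122-5p was miR-1269a, a miRNA with 5747 reads in Huh-7 against 40 in C643 and 0 in ES-2, at a largest difference of 1.66. It was followed by miR-148a-3p at 2.81 and miR-1269b at 2.99. With 1 read added, miR-885-5p was at 1.41 from miR-122-5p. In ES-2 miR-122-5p had 6 reads, and miR-885-5p and miR-1269a had 0. The added read thus weighs on both distances, and 1.41 and 1.66 are not ranked.

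miR-1269a was also nearest to miR-885-5p, at 1.43, followed by miR-1269b at 1.59 and miR-548x-3p at 2.14. The profiles of the 3p arms rest on 0 to 7 reads in C643 and ES-2. miR-885-3p was nearest to miR-548x-3p at 0.19, which gave 866 reads in Huh-7 against 1 in C643 and 0 in ES-2, then to miR-95-3p at 0.51 and miR-1269b at 0.54. miR-122-3p was nearest to miR-200b-3p at 0.68, miR-1269b at 0.82 and miR-548x-3p at 1.27. miR-1269b, with 1364 reads in Huh-7 against 3 in C643 and 0 in ES-2, was thus listed for all 4 members, at 2.99 from miR-122-5p. At such counts the added read and the Huh-7 level set much of each distance. The order of these distances is therefore not read either.

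Other miRNAs linked to liver were taken from 3 lists chosen with earlier results of these data known. Of 10 hepatocyte-enriched miRNAs, 9 reached the level for comparison. Of these, 7 were at least 4-fold higher in Huh-7 than in ES-2 and none was 4-fold lower, beside 27.7% higher over all 390, with a median log2 difference of 6.13 beside 0.54. Of the 9, 5 reached the value of 10 in Huh-7 alone and could only be higher there. Against C643, 6 of 9 were at least 4-fold higher, 3 of the 9 reached the value of 10 in Huh-7 alone, and none was 4-fold lower, beside 25.1% higher over all 399, with a median of 5.07 beside 0.21. miR-193a-5p went in opposite directions, at 2.84 against ES-2 and -1.13 against C643, with 1676 reads in Huh-7 against 8807 in C643 and 94 in ES-2. The most abundant of the list in Huh-7 was miR-148a-3p, with 62362 reads against 4447 in C643 and 11 in ES-2. At 2.87% of reads it stood below miR-122-5p and above miR-885-5p.

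miR-192-5p and miR-194-5p, which share clusters and are expressed in liver, gut and kidney, took 0.880% and 0.844% in Huh-7. They were 134-fold higher there than in ES-2 by share (111 to 164 and 110 to 164), so each exceeded miR-885-5p in level but varied less between lines. miR-215-5p of the same list had 1349 reads in Huh-7 and 0 in both others. miR-193b-3p and miR-101-3p did not reach 4-fold in either comparison on the deposited scale, although miR-193b-3p was 6.23-fold higher in Huh-7 than in ES-2 by share (3.57 to 11.8). By share miR-101-3p was 0.888 times its ES-2 level in Huh-7 (0.841 to 0.939).

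Of 6 miRNAs of liver metabolism, 4 were compared with ES-2. miR-34a-5p, a p53 target, was the 1 that was at least 4-fold higher in Huh-7, with 619 reads against 6 in ES-2 and 0 in C643. It reached the value of 10 in Huh-7 alone, and 1 of 4 is close to the 27.7% over all miRNAs. Against C643 it was again 1 of 4, beside 25.1%. The median log2 difference was 0.45 against ES-2, beside 0.54 over all, and 1.73 against C643, beside 0.21. The others compared with ES-2 were miR-103a-3p at 0.79, miR-107 at 0.10 and miR-378a-3p at -1.76. By share miR-103a-3p was 3.27-fold and miR-107 2.03-fold higher in Huh-7 than in ES-2. miR-378a-3p went the other way, at 0.555 times its ES-2 share in Huh-7 (0.507 to 0.607). miR-33a-5p and miR-33b-5p, which are encoded in the SREBP genes and act in sterol balance, gave 25 and 5 reads in Huh-7, against 13 and 2 in ES-2 and 0 in C643.

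Of 6 miRNAs of liver cancer and fetal liver, 4 were compared with ES-2, and 2 of them were at least 4-fold higher in Huh-7 and none 4-fold lower, beside 27.7% higher over all. These were the arms of miR-483, encoded in IGF2, for which Huh-7 gave 8291 reads of the 5p and 22452 of the 3p arm, and ES-2 gave 0 of each. They reached the value of 10 in Huh-7 alone. The list was split, at 11.19 and 12.63 on the log2 scale for the miR-483 arms and -0.01 and 0.71 for miR-224-5p and miR-452-5p, so that its median of 5.95, or 5.42 with miRNAs absent from ES-2 set against 3 reads, describes neither pair. By share miR-224-5p was 1.88-fold higher in Huh-7 than in ES-2 (1.77 to 1.99) and miR-452-5p 3.10-fold (2.65 to 3.64). Against C643 the 2 arms of miR-483 were again at least 4-fold higher and none of the list 4-fold lower, beside 25.1% over all, with a median of 1.76. There the miR-483 arms had 774 and 3264 reads, against 468 of miR-122-5p, and miR-224-5p and miR-452-5p stood at -1.60 and -0.53 on the deposited log2 scale, although by share miR-452-5p was 1.08 times its C643 level in Huh-7. miR-224-5p was higher by share in C643, at 0.366%, than in Huh-7, at 0.190%.

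**Figure D5:**
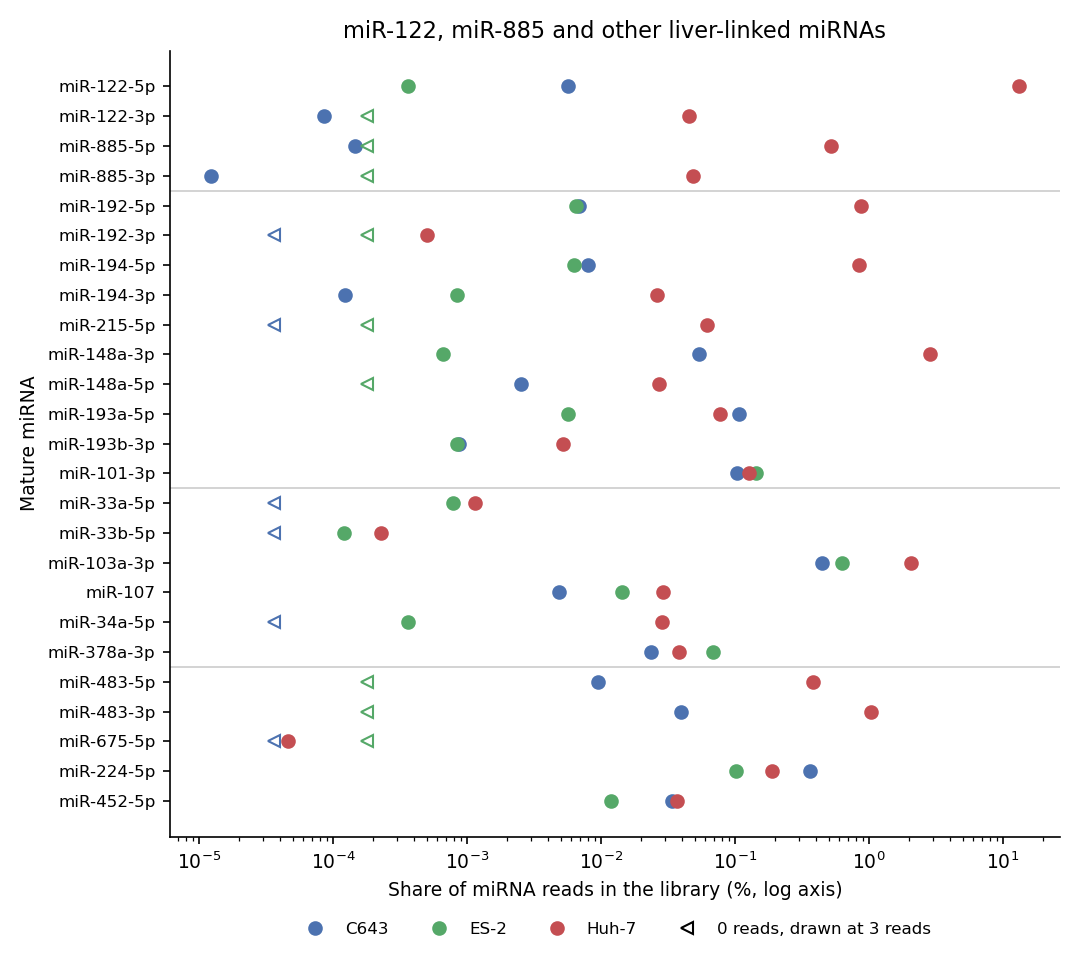
Share of miRNA reads (percent, log axis) of the miR-122 and miR-885 arms (top block) and of the hepatocyte-enriched, liver metabolism and liver cancer and fetal liver lists (blocks below, from top to bottom) in C643, ES-2 and Huh-7; open triangles mark 0 reads, drawn at 3 reads, and a miRNA at 0 in all lines is left out. miR-122-5p reaches 13.3% in Huh-7, and miR-148a-3p follows with 2.87%.

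Markers of other tissues were inspected because miR-885 is not known from hepatocytes alone. Of 16 markers of neurons, muscle, red blood cells, leukocytes and pancreas, 8 had no read in C643 and 6 each in ES-2 and Huh-7. Their summed share was 0.703% in Huh-7 against 0.172% in C643 and 0.240% in ES-2, and its part in the members' levels was not tested. The neuronal miR-124-3p was at 0 in all lines, and miR-9-5p was lower in Huh-7, with 23 reads, than in C643 and ES-2, with 1034 and 359. Most of the sum was miR-128-3p, which many cell types express, at 0.528% in Huh-7.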

How the data were processed

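Libraries of small RNA were made from 50 ng of TRIZOL-extracted total RNA of each line (NEXTflex) and read on an Illumina HiSeq. Per the submitters' processing notes, cutadapt 1.14, Bowtie2 2.3.3, SAMtools 1.5, featureCounts 1.5.3 and edgeR 3.18.1 were used on hg38, which is GRCh38. The annotation version, strand setting and treatment of random adapter bases and of reads matching several loci are not given in the sources used here. The authors deposited, under the name CPM, a signal of reads per locus times a library factor, in 2 tables. Columns summed to 959302, 1154552 and 612015 (C643, ES-2, Huh-7), not to 1000000, although plain CPM would. Every nonzero value was a whole multiple of the smallest (tolerance 0.001, 100% of values), and 1 read was worth 0.117, 0.694 and 0.282 units.

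Loci were summed by mature miRNA. Shares carry Wilson intervals, ratios exact conditional binomial intervals (scipy 1.17.1, pandas 2.3.3), and absent miRNAs a limit of 3 reads. Levels were compared as log2(value + 1), which understates low miRNAs, at 10 or more in either line. There were no replicates, and no test of the lines was possible. The exact binomial test on the reads of ES-2 and Huh-7, which compares those libraries, called 344 of 390 miRNAs, 210 higher in Huh-7. Its null was an equal deposited value, not an equal share. On reads simulated for this comparison with counting error alone, it recovered 100% of 200 miRNAs changed 8-fold and called 0.526% of 190 unchanged ones. The simulation held no variation between cultures or libraries, so it cannot show how the test does with it. If reads were PCR copies, counts overstate independent molecules. Besides the members, the text names miR-21-5p, the 3 nearest profiles and the neighbours in the Huh-7 order of each member, MIR3591 products and members of the lists. Members and lists were chosen with earlier results of these data known. Positions were taken from RefSeq and GENCODE 29, and sequences of all 4 members from RefSeq.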

Additional observations from a re-analysis of the deposited data

How the results depend on the processing

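No paired analysis was possible because there was 1 library per line. Of 104 recomputed values 67 stayed within counting error or within 1.5 times of a count, 37 moved and none reversed. Among the values marked as headline results, 26 moved and 23 stayed. Shares and counts cannot change sign, and members without a read in ES-2 stay at 0 under every denominator. A reversal was thus hardly possible, and nothing is read from its absence. Without miR-21-5p in the denominator, the 4 members held 20.8% in Huh-7 and 0.00835% in C643, and miR-122-5p 19.9% and 0.00801%. With 1 locus per mature miRNA the sums were 15.2% and 0.00717%, and miR-122-5p held 14.6% and 0.00687%. The differences between Huh-7 and ES-2 depended on the pseudocount, since 3 members had no read in ES-2. With a pseudocount of 10 they were 12.49 for miR-122-5p, 8.33 for miR-885-5p, 4.93 for miR-885-3p and 4.85 for miR-122-3p on the log2 scale. With 0.5 the last 3 were 12.64, 9.21 and 9.12, and by share 12.35, 8.92 and 8.83. The number of miRNAs at least 4-fold higher in Huh-7 than in ES-2 was 42 with a filter at 100, 180 without a filter, 60 with a pseudocount of 10, 181 by share, and 210 were called higher by the read test. Against C643 it was 44, 55 and 157 with the filter at 100, the pseudocount of 10 and by share. By share each log2 ratio of Huh-7 without a pseudocount rises by 0.92 against ES-2 and by 0.65 against C643. With 1 added the shift can differ: that of miR-885-5p against ES-2 went from 11.64 to 12.35. By share, 4 of 5 miRNAs of liver metabolism were at least 4-fold higher in Huh-7 than in C643, in place of 1 of 4. Over all miRNAs this held by share for 157 of 442. Ratios between arms stayed within their intervals with 1 read added. Depth limited the 3p arms and miR-885-5p in ES-2, where 1 read was worth 0.694 units, and the arm ratios of C643.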

Other observations

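The tissue markers held a few values that concern Huh-7 and ES-2. The pancreatic miR-375 gave 762 reads in Huh-7 against 1 in C643 and 6 in ES-2, and miR-217 gave 205 against 60 and 5, while miR-216a-5p had 5 reads in Huh-7 and 0 elsewhere. miR-486-5p gave 2766 reads in Huh-7 against 174 in C643 and 9 in ES-2, whereas the other red blood cell markers were near or at 0, with 1 read of miR-451a in ES-2 and none of miR-144-3p. The leukocyte miR-142-3p and miR-142-5p had 542 and 255 reads in ES-2, and 0 and 3 in C643. Both were at 0 in Huh-7, where miR-223-3p had 1 read. Of the muscle markers, miR-1-3p gave 23 reads in Huh-7 against 10 in C643 and 3 in ES-2, miR-133a-3p had 5 reads in Huh-7 alone, and miR-206 was at 0 in all lines.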
